A study of Mus musculus with 6 samples.

Results

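The hypoxia-inducible factor (HIF) pathway was examined through 10 genes: the factor subunits *Hif1a*, *Epas1* and *Arnt*, the ubiquitin ligase receptor *Vhl*, the prolyl hydroxylases *Egln1*, *Egln2* and *Egln3*, the asparaginyl hydroxylase *Hif1an*, and the mitochondrial genes *Bnip3* and *Bnip3l*. The genes were chosen by name for their place in the pathway, and all 10 were measured among 19505 genes, each by a single probe set. The cells were CD4+YFP+ Treg cells from Foxp3 Cre/wt females with both targeted genes floxed, Rbx1 fl/fl and Sag fl/fl (*Rbx1*&*Sag*-deficient), set against the same cells from Foxp3 Cre/wt females (control), all 8 to 12 weeks old. Cells were sorted from peripheral lymph nodes and spleens, and each of the 3 samples per genotype pooled 2 to 3 mice and was read on 1 Clariom S array. Both genotypes carried the Foxp3 YFP-Cre allele, which drives Cre and YFP in cells that express *Foxp3*. As *Foxp3* is X-linked and these females had a single copy of the allele, both kinds of mice also kept Treg cells without Cre.

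HIF is a pair of an alpha subunit, encoded by *Hif1a* or *Epas1*, and the stable partner encoded by *Arnt*. When oxygen is present, the EGLN enzymes hydroxylate prolines of the alpha subunit, and VHL then binds it and hands it to a cullin-RING ligase built of elongins, cullin-2 and the RING protein RBX1, which marks it for the proteasome. *Rbx1*, a targeted gene here, is thus also a subunit of the VHL ligase. HIF1AN hydroxylates an asparagine of the alpha subunit and so keeps it from its coactivators. Since this control acts on protein, mRNA of *Hif1a* or *Epas1* does not report how much HIF protein a cell holds, and no protein was measured. *Egln1*, *Egln3*, *Bnip3* and *Bnip3l* are known targets of HIF, and in T cells HIF-1 is known for promoting glycolysis and for bearing on the choice between TH17 and Treg fates.

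HIF binds DNA at a short core, ACGTG or GCGTG. The windows of 3 known target genes are shown because the values below include both a lower mean (*Egln1* and *Egln3*) and a higher mean (*Bnip3*) among them. RefSeq promoter windows of GRCm38.p6, from 250 bases before to 50 after a start site, matched 8 of the 10 genes with 9 windows. Capitals mark ACGTG or GCGTG on either strand, so that the reverse complements CACGT and CACGC are in capitals too.
*Bnip3* promoter, GRCm38.p6 chr7:138909457-138909756, minus strand: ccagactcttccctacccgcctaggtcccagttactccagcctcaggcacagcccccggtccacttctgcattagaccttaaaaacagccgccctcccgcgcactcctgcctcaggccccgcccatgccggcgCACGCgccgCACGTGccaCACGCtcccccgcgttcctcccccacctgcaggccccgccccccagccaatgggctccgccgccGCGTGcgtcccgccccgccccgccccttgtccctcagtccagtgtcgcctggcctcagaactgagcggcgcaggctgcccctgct
*Egln1* promoter, GRCm38.p6 chr8:124949205-124949504, minus strand: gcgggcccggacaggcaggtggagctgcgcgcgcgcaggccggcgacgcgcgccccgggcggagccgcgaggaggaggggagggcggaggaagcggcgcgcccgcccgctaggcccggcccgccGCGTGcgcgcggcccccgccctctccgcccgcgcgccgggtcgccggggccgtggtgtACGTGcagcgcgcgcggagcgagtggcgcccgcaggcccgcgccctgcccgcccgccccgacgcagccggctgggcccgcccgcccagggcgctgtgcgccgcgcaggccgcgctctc
*Egln3* promoter, GRCm38.p6 chr12:54203825-54204124, minus strand: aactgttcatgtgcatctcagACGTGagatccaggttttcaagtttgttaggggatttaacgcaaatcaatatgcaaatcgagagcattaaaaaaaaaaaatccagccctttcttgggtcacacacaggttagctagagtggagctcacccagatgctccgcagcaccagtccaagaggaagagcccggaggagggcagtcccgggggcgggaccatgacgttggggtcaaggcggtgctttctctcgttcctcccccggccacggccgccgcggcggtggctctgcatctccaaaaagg
The *Bnip3* window held 5 matches, of which a CACGTG about 107 bases before the start site is read on both strands and counts as 2 overlapping ones. *Egln1* held 2 matches, the nearer 68 bases before the start site, and *Egln3* held 1, at 229 bases. Of the others, *Hif1a* held 3 matches, the 2 windows of *Egln2* held 6 and 1, *Arnt* held 1, and *Vhl* and *Hif1an* held none. At least 1 match was present in 43.8% of all 32851 promoter windows, so that a match here is a description of the sequence and not a site.

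The deposited values were log2 signals, and the array medians were 4.26, 4.13 and 4.32 in *Rbx1*&*Sag*-deficient and 4.11, 4.0 and 4.02 in control cells. The upper quartiles ran the other way, at 7.11, 7.37 and 6.93 in *Rbx1*&*Sag*-deficient and 7.68, 7.81 and 7.73 in control cells. Of the targeted genes, *Rbx1* fell by 4.24 log2 units (adjusted p = 0.000237 from limma, standard error 0.30). *Sag*, listed as *Rnf7*, read 10.94, 11.39 and 9.65 in *Rbx1*&*Sag*-deficient and 11.47, 11.29 and 10.93 in control cells and did not pass (-0.57, adjusted p = 0.379), and whether its probe set covers the deleted part is not known here. *Cd3d*, *Cd3e*, *Cd3g* and *Cd4* read 13.13 or higher on every array, and 5 of 8 measured T cell and Treg markers fell. Of all genes 9.49% fell, and of those brighter than the median gene 18.3%. *Foxp3* has no named probe set and was not analysed here. Some markers of other cells moved with the genotype. Of the measured markers, 2 of 6 myeloid, 2 of 5 CD8 and natural killer and 1 of 4 B cell genes fell and none rose, where 9.49% of all genes fell and 2.7% rose. The log2 of their summed signal spanned 6.02 to 6.05, 8.77 to 9.23 and 6.02 to 6.24 in *Rbx1*&*Sag*-deficient cells, against 6.39 to 7.44, 9.09 to 9.65 and 7.25 to 7.44 in control cells. The CD8 and natural killer sums thus overlapped between genotypes. The part of these markers in the results was not tested. Among these, *Cd14*, *Itgam*, *Adgre1*, *Cd8a*, *Ncr1*, *Cd79a*, *Ms4a1* and *Pax5* lay below the median of every array. *Cd8b1* and *Cd79b* lay above it on every array. *Cd8b1* read 8.42 to 9.09 in *Rbx1*&*Sag*-deficient and 8.46 to 8.89 in control cells (log2 fold change -0.02). *Cd79b* read 5.08 to 5.42 and 6.95 to 7.19. Of 5 skeletal muscle markers, none of which passed, *Acta1* and *Myh4* lay below the median of every array. *Ckm* lay above it on every array, at 4.75 to 5.09 and 4.57 to 5.15, and *Tnnt3* and *Mylpf* lay on both sides.

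None of the 10 HIF pathway genes passed the test of *Rbx1*&*Sag*-deficient against control cells. With limma, 0 of 10 at an adjusted p below 0.05 were lower and 0 of 10 higher, where 9.49% and 2.7% of all genes were, and 18.3% and 3.02% of the 9747 genes brighter than the median gene. At an unadjusted p under 0.05, 2 were lower (*Hif1a* and *Vhl*, against 18.9% of all genes) and 1 was higher (*Bnip3*, against 11.4%), or 3 of 10 in either direction against 30.2% of all and 43.9% of the brighter genes. By the t-test of the paper's methods with the same adjustment, 0 of 10 passed on log2 or on linear values. Few genes did at all: 23 lower and 7 higher of all 19505 on log2 values, and 20 and 6 on linear values. The paper's own calls used a fold change and a p under 0.05 and name no adjustment, so these counts do not stand for them. The targeted *Rbx1* did not pass the adjusted t-test either (adjusted p = 0.0541 on log2 and 0.0992 on linear values). Before adjustment, the t-test on log2 values gave a p under 0.05 for *Egln1* (0.0294) and *Bnip3* (0.0426). It did not for *Vhl* (0.0561) or *Hif1a* (0.102). The mean was lower in *Rbx1*&*Sag*-deficient cells for 8 of 10 genes, against 47.0% of all genes and 70.2% of the brighter genes. The median log2 fold change was -0.49 over the 10 genes, 0.04 over all genes and -0.40 over those brighter than the median, which include 9 of the 10 HIF pathway genes. With 3 arrays per genotype the test has limited reach: in simulated data for this comparison of 19505 genes, it recovered 28% of the log2 changes of 1 and 99% of those of 2. Only 100 genes were changed by each size there, and both genotypes were given the same spread. In the measured data 12.2% of genes passed and the spread differed by genotype, so these shares need not hold for them.

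**Figure D1:**
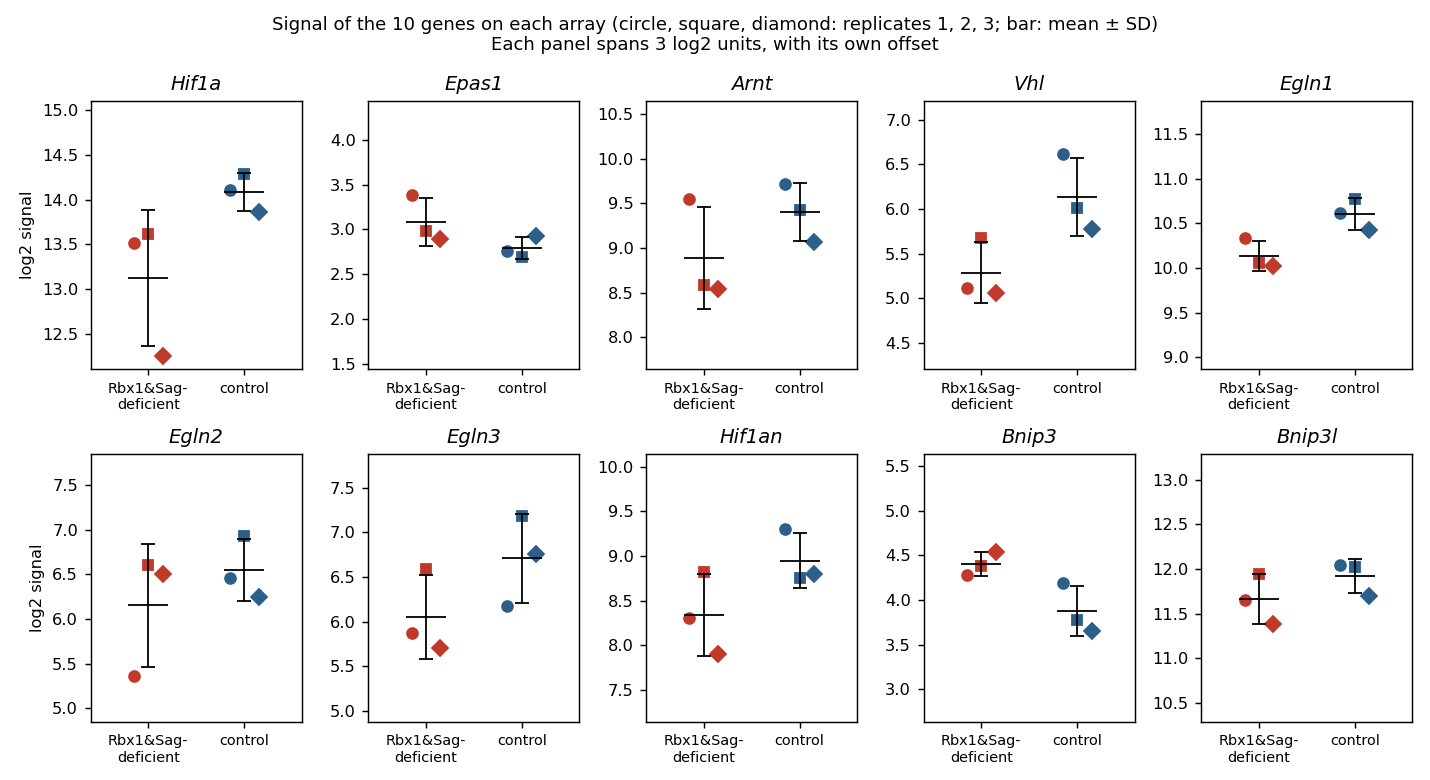
Log2 signal (vertical axes, each panel with its own offset) of the 10 HIF pathway genes on the 3 *Rbx1*&*Sag*-deficient arrays (red, left) and the 3 control arrays (blue, right); horizontal bars are means and error bars are SD. The arrays of both genotypes separate without overlap for *Hif1a*, *Vhl*, *Egln1* and *Bnip3*, and overlap for the other 6 genes.

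*Hif1a*, the alpha subunit gene of HIF-1, read 13.51, 13.61 and 12.25 in *Rbx1*&*Sag*-deficient and 14.11, 14.29 and 13.86 in control cells. All 3 *Rbx1*&*Sag*-deficient arrays lay below all 3 control arrays, by a gap of 0.25, and replicate 3 lay far under the other *Rbx1*&*Sag*-deficient replicates. The log2 fold change was -0.96 (standard error 0.36, 95% interval -1.77 to -0.15), with an unadjusted p of 0.0245 and an adjusted p of 0.11 from limma. It was -0.53 without *Rbx1*&*Sag*-deficient replicate 3 (adjusted p = 0.185). Over all alternatives on the log2 scale it stayed below 0, between -1.21 and -0.37. In such bulk samples fewer cells of a type and less RNA per cell cannot be told apart. The 3 of 17369 other named genes whose centered profile over the 6 arrays was nearest to that of *Hif1a* were *Chpf*, of chondroitin synthesis (root mean square difference 0.0892), *Ostc*, of the oligosaccharyltransferase complex (0.0987), and *Pigp*, of glycosylphosphatidylinositol anchor synthesis (0.107). Their log2 fold changes were -1.03, -1.05 and -0.88, and none of them passed (adjusted p = 0.0645, 0.11 and 0.111 from limma). As these 3 genes were picked for their likeness to *Hif1a*, their similar fold changes follow from the choice.

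*Epas1*, which encodes HIF-2 alpha, stood at the dim end of every array. It read 3.39, 2.98 and 2.89 in *Rbx1*&*Sag*-deficient and 2.76, 2.69 and 2.93 in control cells, each value below its array's median. The groups overlapped, and the log2 fold change was 0.29 (standard error 0.23, 95% interval -0.21 to 0.80, adjusted p = 0.411 from limma). *Epas1* is known for its high level in endothelium, and of 6 endothelial markers *Cdh5*, *Kdr*, *Emcn*, *Tek* and *Vwf* also lay below the median of all 6 arrays, while *Pecam1*, at 10.27 to 10.45 in *Rbx1*&*Sag*-deficient and 10.34 to 10.79 in control cells, lay well above it. *Arnt*, the partner of both alpha subunits, read 9.55, 8.58 and 8.54 in *Rbx1*&*Sag*-deficient and 9.72, 9.42 and 9.07 in control cells. Replicate 1 of the *Rbx1*&*Sag*-deficient arrays lay inside the control range, and the log2 fold change of -0.51 had a 95% interval of -1.23 to 0.20 (adjusted p = 0.309).

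*Vhl*, the substrate receptor that recognizes hydroxylated HIF, had the smallest p of the 10 genes in the limma fit used for the calls. This rank depended on the test. In limma, *Hif1a* was ahead of *Vhl* with an intensity trend (unadjusted p = 0.0134 against 0.0253) and with the replicate block (0.00865 against 0.0175). By the t-test on log2 values, *Egln1* and *Bnip3* were ahead of it. The signal of *Vhl* was 5.12, 5.68 and 5.06 in *Rbx1*&*Sag*-deficient and 6.62, 6.01 and 5.78 in control cells. The genotypes did not overlap, but only 0.10 separated the highest *Rbx1*&*Sag*-deficient from the lowest control array. The log2 fold change of *Vhl* was -0.85 (standard error 0.29, 95% interval -1.5 to -0.20, adjusted p = 0.0856 from limma). It passed without *Rbx1*&*Sag*-deficient replicate 2 (-1.05, adjusted p = 0.0418) and after median centering (-1.03, adjusted p = 0.0488), and in none of its 17 other alternatives. Of the other subunits of the VHL ligase, *Elob*, *Eloc* and *Cul2*, for the elongins and the cullin, did not pass, with log2 fold changes at -0.24, 0.29 and -0.54 (adjusted p = 0.564, 0.366 and 0.424). Thus 1 of the 5 genes of this ligase fell and none rose (20% against 12.2% of all genes), the 1 being the targeted *Rbx1*, which read 5.04, 5.53 and 5.84 in *Rbx1*&*Sag*-deficient and 9.26, 10.08 and 9.80 in control cells. Except for that gene, no subunit gene of the ligase was shown to differ.

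Of the hydroxylases, *Egln1* was the least variable. *Egln1*, which encodes PHD2, the main oxygen sensor of this system, read 10.33, 10.06 and 10.02 in *Rbx1*&*Sag*-deficient and 10.62, 10.77 and 10.42 in control cells. These ranges did not overlap, with a gap of 0.09, and the log2 fold change was -0.47 (95% interval -0.95 to 0.02, adjusted p = 0.182 from limma). *Egln2*, for PHD1, overlapped, at 5.36, 6.60 and 6.5 in *Rbx1*&*Sag*-deficient and 6.46, 6.93 and 6.25 in control cells. Its log2 fold change of -0.39 (95% interval -1.19 to 0.40, adjusted p = 0.486) rested on replicate 1 of the *Rbx1*&*Sag*-deficient arrays, without which it was 0.0033.

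*Egln3*, for PHD3, a known HIF target, read 5.87, 6.59 and 5.70 in *Rbx1*&*Sag*-deficient and 6.18, 7.18 and 6.76 in control cells. Its groups overlapped, and its log2 fold change was -0.65 (95% interval -1.39 to 0.09, adjusted p = 0.213). *Hif1an*, for the asparaginyl hydroxylase FIH, read 8.31, 8.82 and 7.90 in *Rbx1*&*Sag*-deficient and 9.30, 8.75 and 8.80 in control cells. A single *Rbx1*&*Sag*-deficient array, replicate 2, reached the control range, and the log2 fold change was -0.61 (95% interval -1.25 to 0.04, adjusted p = 0.191). All 4 hydroxylase genes thus had lower means in *Rbx1*&*Sag*-deficient cells in the deposited values, which for *Egln1* and *Egln2* did not hold under 3 other scalings, and none passed.

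*Bnip3* and *Bnip3l* encode related proteins of the outer mitochondrial membrane that bind the autophagy machinery and promote mitophagy. *Bnip3* was the gene of the 10 with the highest log2 fold change, 0.53 (standard error 0.23, 95% interval 0.01 to 1.04, adjusted p = 0.158 from limma). It read 4.28, 4.38 and 4.54 in *Rbx1*&*Sag*-deficient cells, each at or above its array's median, and 4.19, 3.78 and 3.65 in control cells, where replicates 2 and 3 lay below theirs. The genotypes did not overlap, with a gap of 0.09. *Bnip3l*, also called Nix, read 11.65, 11.95 and 11.39 in *Rbx1*&*Sag*-deficient and 12.04, 12.02 and 11.70 in control cells. These overlapped, and the log2 fold change was -0.26 (95% interval -0.79 to 0.27, adjusted p = 0.493), which on the linear scale spans 0.58-fold to 1.21-fold. *Bnip3* passed in 1 of its 19 alternatives, after centering on the brighter genes (1.12, adjusted p = 0.0164). *Epas1* passed under the same setting (0.89, adjusted p = 0.0297), which raised the median log2 fold change of all genes to 0.64.

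**Figure D2:**
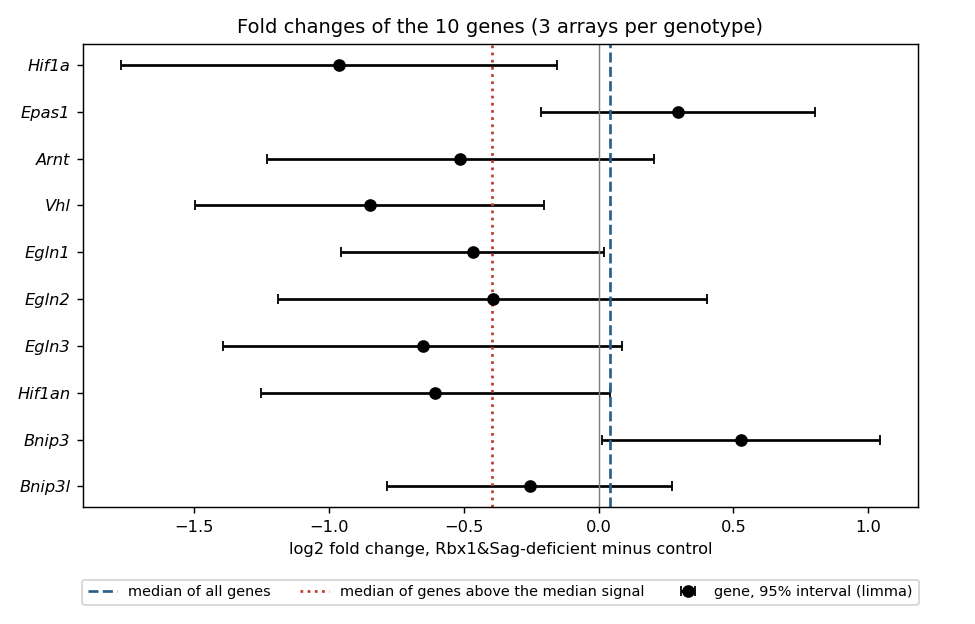
Log2 fold change of each HIF pathway gene, *Rbx1*&*Sag*-deficient minus control (horizontal axis), with 95% intervals from limma over 3 arrays per genotype. The dashed line is the median of all genes (0.04) and the dotted line that of the genes above the median signal (-0.40); the intervals of *Hif1a*, *Vhl* and *Bnip3* leave out 0, and none of the 10 genes passed after adjustment.

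Without overlap between genotypes were 3 genes that were lower (*Hif1a*, *Vhl* and *Egln1*, where 19.7% of all genes were so) and 1 that was higher (*Bnip3*, where 15.2% were). Together these 4 of 10 stand beside 35.0% of all and 44.2% of the brighter genes, so that the share was near the background. The arrays contributed unequally. *Rbx1*&*Sag*-deficient replicate 3 was the lowest of the 6 arrays for 7 of the 10 genes, namely *Hif1a*, *Arnt*, *Vhl*, *Egln1*, *Egln3*, *Hif1an* and *Bnip3l*, against 24.6% of all genes and 40.0% of the genes above the median signal. The spread between replicates was larger in *Rbx1*&*Sag*-deficient than in control cells for 6 of the 10 genes, against 68.8% of all genes, with median SDs of 0.40 and 0.29 over the 10.

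Related genes were also compared within each array, where a shift common to all genes of an array cancels but a shift that depends on brightness does not. In 6 pairs, the difference of the log2 values was set between genotypes with an exact two-sided permutation test, which cannot go below 0.1 for 3 against 3 arrays. *Hif1a* minus *Epas1* was 10.12, 10.63 and 9.36 in *Rbx1*&*Sag*-deficient and 11.35, 11.60 and 10.93 in control cells, without overlap (difference between genotypes -1.26, standard error 0.42, exact p = 0.1, 0.3 after Benjamini-Hochberg adjustment over the 6 pairs). *Bnip3* minus *Bnip3l* was -7.37, -7.57 and -6.85 in *Rbx1*&*Sag*-deficient and -7.85, -8.24 and -8.05 in control cells, also without overlap (difference 0.78, standard error 0.24, exact p = 0.1, adjusted 0.3). *Epas1* lay at the dim end of the arrays and *Bnip3* near their median, whereas *Hif1a* and *Bnip3l* were bright, and both differences shrank under scalings that act by brightness. After quantile and cyclic loess normalization, *Hif1a* minus *Epas1* differed by -0.64 and -0.63 (exact p = 0.2 and 0.2) and *Bnip3* minus *Bnip3l* by 0.17 and 0.16 (exact p = 0.3 and 0.2). The other 4 pairs overlapped. *Hif1a* minus *Arnt* differed by -0.45 (standard error 0.43, exact p = 0.4), and *Egln1* minus *Egln2*, *Egln1* minus *Egln3* and *Egln2* minus *Egln3* by -0.07, 0.19 and 0.26, with 95% intervals of -1.48 to 1.33, -0.96 to 1.33 and -0.98 to 1.5 and exact p of 1, 0.9 and 0.7. These intervals are wide, and no unequal change among the prolyl hydroxylases was detectable with 3 arrays per genotype.

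The direction of 4 of the 10 genes depended on how the arrays were scaled. After quantile normalization, 4 of the 10 genes had a lower and 6 a higher mean, with a median log2 fold change of 0.03, and after cyclic loess normalization the counts were the same, with a median of 0.04. *Hif1a* (-0.54 and -0.56), *Vhl* (-0.51 and -0.51), *Egln3* (-0.17 and -0.20) and *Hif1an* (-0.03 and -0.06) kept their sign, as did *Bnip3* (0.35 and 0.39) and *Epas1* (0.09 and 0.07). *Arnt*, *Egln1*, *Egln2* and *Bnip3l* turned from a lower to a higher mean, with log2 fold changes of at most 0.23. None of the 10 passed after either normalization. The share of lower genes among all that passed also moved, being 77.8% as deposited, 57.8% after quantile and 58.1% after cyclic loess normalization.

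**Figure D3:**
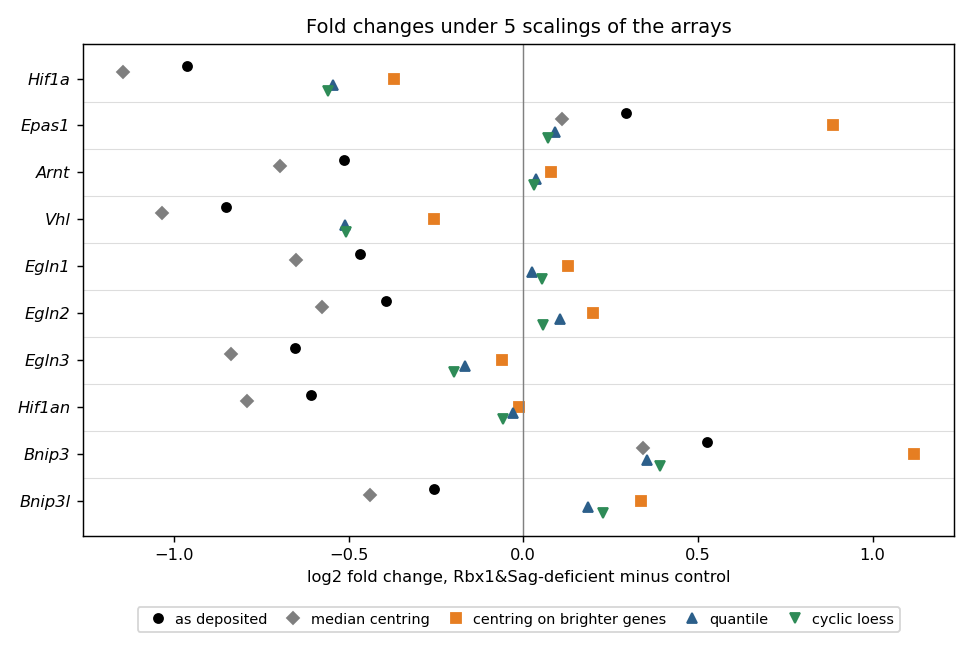
Log2 fold change of each HIF pathway gene (horizontal axis), *Rbx1*&*Sag*-deficient minus control, in the deposited values and under 4 other scalings of the arrays. *Hif1a* and *Vhl* stay left of 0 and *Bnip3* and *Epas1* right of 0 under all 5 scalings, while *Arnt*, *Egln1*, *Egln2* and *Bnip3l* cross it.

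Of 12 other subunits and regulators of HIF measured, *Siah2* alone passed in the deposited values: 1 rose and none fell (8.33% against 12.2% of all genes), with a median log2 fold change of 0.14. *Siah2*, a RING ubiquitin ligase known to target prolyl hydroxylases for degradation, read 9.84, 9.11 and 8.06 in *Rbx1*&*Sag*-deficient and 7.36, 7.09 and 5.87 in control cells. Every *Rbx1*&*Sag*-deficient array lay above every control array, and *Siah2* rose by 2.23 (standard error 0.50, adjusted p = 0.0229 from limma). It passed under each of the 4 other scalings, but not without control replicate 2 or 3 (adjusted p = 0.0711 and 0.0837), without *Rbx1*&*Sag*-deficient replicate 1 (adjusted p = 0.0622) or with the t-test of the methods (adjusted p = 0.183 on log2 values). The chaperone gene *Hsp90aa1* was next, with a log2 fold change of 0.64 (adjusted p = 0.0778), and it passed as higher with quantile normalization (0.97, adjusted p = 0.0275) and with cyclic loess (0.93, adjusted p = 0.0237). After centering on the brighter genes, 5 of the 12 passed as higher, *Hif3a* among them, where 6966 of all 19505 genes did. In the deposited values *Hif3a* and *Arnt2*, which encode further HIF subunits, did not pass (log2 fold changes 0.11 and -0.23). *Hif3a* was dim, at 2.98 to 3.52 in *Rbx1*&*Sag*-deficient and 3.18 to 3.2 in control cells.

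Of 20 measured HIF targets of glucose use, 1 fell and none rose, or 5% against 12.2% of all genes in either direction, with a median log2 fold change of -0.24. Quantile normalization put that median at 0.0004, cyclic loess at 0.02, and centering on the brighter genes at 0.35, with *Hk2* and *Tpi1* passing as higher under the last. Under that last scaling 6966 of all 19505 genes passed as higher. The 1 that fell in the deposited values was *Aldoa*, a glycolytic aldolase, at 12.31 to 13.34 in *Rbx1*&*Sag*-deficient cells and at 13.84 or higher on all 3 control arrays (log2 fold change -1.13, adjusted p = 0.0341 from limma). It no longer passed after quantile or cyclic loess normalization (adjusted p = 0.12 and 0.119), and leaving out any array other than *Rbx1*&*Sag*-deficient replicate 2 also lost the call (adjusted p = 0.0567 to 0.115). The glycolytic enzyme gene *Tpi1* was next, with a log2 fold change of 0.79 (adjusted p = 0.126), and it passed as higher after both normalizations (adjusted p = 0.025 and 0.0228). The glucose transporter *Slc2a1* (0.19, 95% interval -0.46 to 0.85), lactate dehydrogenase *Ldha* (-0.45, -0.93 to 0.03) and the pyruvate dehydrogenase kinase *Pdk1* (0.23, -0.42 to 0.88), often used as readouts of HIF, did not pass.

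Of 27 measured HIF targets of other function, 5 fell and none rose (18.5% against 12.2% of all genes), with a median log2 fold change of 0.01. The largest fall was that of *Ddit4*, which encodes REDD1, an inhibitor of mTORC1 that is induced by hypoxia and by other stresses. *Ddit4* read 8.00, 7.97 and 6.55 in *Rbx1*&*Sag*-deficient and 10.44, 10.24 and 12.06 in control cells. The groups lay more than 2.2 apart, and the fall of *Ddit4* was 3.41 log2 units (log2 fold change -3.41, adjusted p = 0.00603 from limma). The call held under all 4 other scalings and without each array in turn, but not with the t-test of the methods (adjusted p = 0.128 on log2 values). Over the list, 1 gene was lower and 1 higher (*Higd1a*) with quantile normalization, 1 lower and 2 higher (*Higd1a* and *Bhlhe40*) with cyclic loess, and 2 lower and 8 higher after centering on the brighter genes. Under that centering 910 of all 19505 genes were lower and 6966 higher.

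The other 4 were *Nrn1*, for neuritin (-1.42, adjusted p = 0.0113), *Fam162a*, a mitochondrial hypoxia-responsive gene (-1.33, adjusted p = 0.0263), the histone demethylase *Kdm4c* (-1.15, adjusted p = 0.0194) and the lipid droplet protein *Plin2* (-0.93, adjusted p = 0.0382), all from limma. None of these 4 passed after quantile or cyclic loess normalization (adjusted p = 0.0516 to 0.171). With a single array left out, *Nrn1* lost its call without control replicate 2 or 3 (adjusted p = 0.0632 and 0.0588) and *Fam162a* without control replicate 1 or 2 (0.0858 and 0.118). *Kdm4c* lost it without control replicate 2 or 3 or *Rbx1*&*Sag*-deficient replicate 1 (0.0711, 0.0883 and 0.0546), and *Plin2* whichever of the 6 arrays was left out (0.0543 to 0.161). The carbonic anhydrase *Car12* was next (-1.07, adjusted p = 0.0545), and the growth factor *Vegfa* had a log2 fold change of 0.17 (95% interval -0.50 to 0.84).

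Around *Bnip3* and *Bnip3l*, 4 of 16 measured genes of mitophagy fell and none rose (25% against 12.2% of all genes and 21.4% of the brighter ones), with a median log2 fold change of -0.26. Under other scalings this direction turned: the median was 0.19 after both quantile and cyclic loess normalization, with 0 lower and 0 higher after quantile and 0 lower and 2 higher (*Gabarapl1* and *Sqstm1*) after cyclic loess. After centering on the brighter genes the median was 0.34, with 1 lower and 4 higher, where 910 and 6966 of all 19505 genes were. *Fundc1*, another mitophagy receptor of the outer membrane, read 8.61, 8.85 and 8.20 in *Rbx1*&*Sag*-deficient and 10.29, 10.38 and 9.48 in control cells (log2 fold change -1.5, adjusted p = 0.0154 from limma). *Fkbp8*, likewise a receptor, read 9.23, 9.41 and 9.25 in *Rbx1*&*Sag*-deficient and 10.25, 10.43 and 10.30 in control cells (-1.03, adjusted p = 0.0141). For both genes every *Rbx1*&*Sag*-deficient array lay below every control array. *Gabarap*, an ATG8 protein to which such receptors bind (-1.16, adjusted p = 0.024), and *Pptc7*, a mitochondrial phosphatase that restrains BNIP3 and NIX (-0.89, adjusted p = 0.0457), fell as well. *Fbxl4*, the receptor of a cullin-RING ligase that degrades BNIP3 and NIX, had a log2 fold change of -0.21 (95% interval -0.70 to 0.27) and did not pass. *Gabarapl1*, a relative of *Gabarap*, was next by p and ran the other way, at 1.02 (adjusted p = 0.117, and 0.0444 after cyclic loess normalization). None of the 4 falls passed after quantile or cyclic loess normalization (adjusted p = 0.0566 to 0.619). With a single array left out, *Fundc1* lost its call without control replicate 1 or 2 (0.0677 and 0.079), *Fkbp8* without control replicate 1, 2 or 3 (0.0511, 0.0763 and 0.0643) and *Gabarap* without control replicate 2 or 3 or *Rbx1*&*Sag*-deficient replicate 1 (0.11, 0.0992 and 0.0667). *Pptc7* kept its call only without *Rbx1*&*Sag*-deficient replicate 3 (0.0288, otherwise 0.0748 to 0.15).

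**Figure D4:**
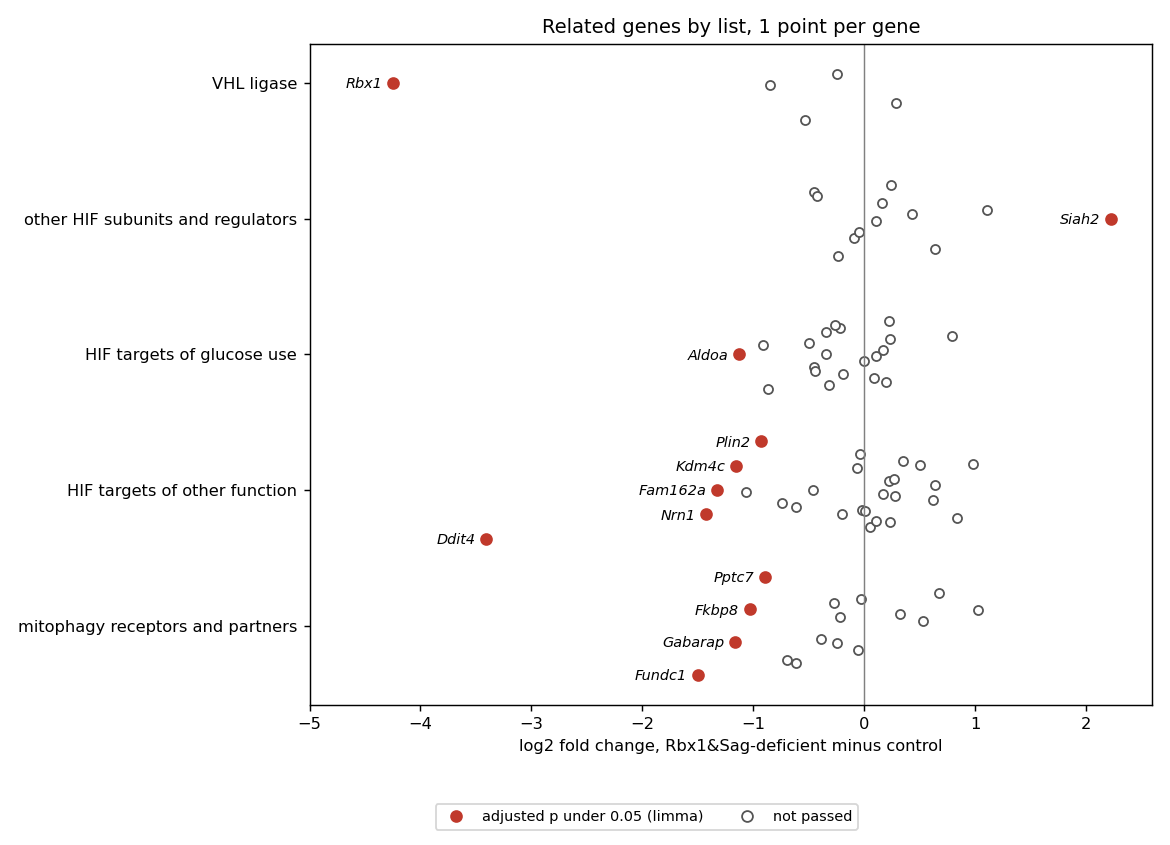
Log2 fold change, *Rbx1*&*Sag*-deficient minus control (horizontal axis), of the genes of 5 related lists, 1 point per gene, with vertical position inside a list set for legibility. Filled points passed at an adjusted p under 0.05 from limma; *Rbx1* and *Ddit4* lie farthest to the left and *Siah2* is the only filled point to the right. Of the filled points, *Rbx1*, *Ddit4* and *Siah2* passed under all 5 scalings.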

How the data were processed

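RNA of sorted CD4+YFP+ Treg cells was amplified and read on 6 Clariom S mouse arrays. The authors processed the arrays with Affymetrix Expression Console 1.4, and the deposited values are log2 signals of 22206 probe sets. For background correction, normalization between arrays and genome build, the method is not given in the sources used here. The sample titles carry the word muscle, whereas cell type and protocols give Treg cells.

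Gene symbols came from the annotation of the platform (19572 with 1 symbol, 2634 with none), and the probe set of highest mean per symbol was kept, giving 19505 genes. The genotypes entered a limma 3.58.1 model (lmFit, eBayes; R 4.3.3) with no covariate, and two-sided p-values were adjusted over the 19505 genes by Benjamini-Hochberg. The fit was tested on simulated data. Named genes were the 10 genes, the targeted genes, the called genes of each list with the smallest p and the next uncalled gene. Other genes named (*Elob*, *Eloc*, *Cul2*, *Hif3a*, *Arnt2*, *Slc2a1*, *Ldha*, *Pdk1*, *Vegfa*, *Fbxl4*, *Hk2*, *Higd1a*, *Bhlhe40*, *Sqstm1* and markers) were picked after values were seen. Genes and lists were chosen with earlier results of these data known. Samples are pools, and p-values measure only how pools differ; the number of arrays limits the precision.

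Alternatives were the t-test of the methods (log2 and linear), an intensity trend, robust moderation, array weights, median centering, centering on the genes above the median signal, quantile and cyclic loess normalization, a filter at the median signal, all probe sets, probe set means, the replicate block and each array left out.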

Additional observations from a re-analysis of the deposited data

How the results depend on the processing

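Over 189 values of the 10 HIF pathway genes under the alternatives, 172 kept their sign and their side of the threshold, 13 changed sign and 4 passed, namely *Vhl* after median centering and without *Rbx1*&*Sag*-deficient replicate 2, and *Bnip3* and *Epas1* after centering on the brighter genes. The count of lower genes was thus 1 after median centering and 0 to 1 with an array left out, and that of higher genes 2 after centering on the brighter genes. After centering on the brighter genes, quantile and cyclic loess normalization the sign turned for *Arnt* (0.08, 0.036 and 0.030), *Egln1* (0.13, 0.024 and 0.055), *Egln2* (0.20, 0.11 and 0.057) and *Bnip3l* (0.34, 0.19 and 0.23), for *Egln2* also without *Rbx1*&*Sag*-deficient replicate 1 (-0.62 to 0.0033 with an array left out), and for *Rnf7* after centering on the brighter genes (0.023). *Epas1* has no value under the filter on dim genes. Within-array differences with an array left out ranged from -0.57 to 0.19 for *Egln1* minus *Egln2*, -0.0017 to 0.49 for *Egln1* minus *Egln3* and -0.09 to 0.56 for *Egln2* minus *Egln3*, so that their sign was not settled.

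Over all genes, 1851 were lower and 527 higher. These counts were 23 and 7 with the t-test of the methods on log2 and 20 and 6 on linear values, 910 and 6966 after centering on the brighter genes, 733 and 535 after quantile and 876 and 631 after cyclic loess normalization. After median centering 279 were higher (90% of calls lower, against 11.6% after centering on the brighter genes), and 324 when only genes brighter than the median were tested. With an array left out they ranged from 544 to 2611 and from 76 to 1012. Same-numbered replicates deviated together with correlations of 0.009, 0.109 and 0.021, and not every sample correlated best with its own. Pairs of unlike number spanned -0.133 to 0.111. Such correlations cannot settle whether same-numbered samples were handled together. With the replicate number as a block, 0 of the 10 genes passed and 2010 genes were lower and 534 higher.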
